A study of Saccharomyces cerevisiae and Kluyveromyces marxianus with 18 samples.

Results

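The 200 most strongly expressed genes of the yeast Kluyveromyces marxianus for which the submitters' gene table leaves the Saccharomyces cerevisiae reference entry empty were followed through 4 oxygen and sterol regimes. They were taken from 1164 genes with an empty entry among the 5143 genes of that table. The count table lists 5330 K. marxianus genes, and the tables of both yeasts together list 11501. For every gene the CPM (counts scaled to a common column total of 1e6) were averaged over the 2 libraries of each group, and the 200 genes with the highest value of their largest group mean were kept. The genes were thus chosen by their CPM in the 8 libraries, and a gene that is very high in 1 group enters more easily than a gene of middling level throughout. At the end of the list, A002220, B006980 and A000600 (all with the prefix KM6556v0_) stood at 225, 223 and 221 CPM, and the next 3 genes, C008120, E001320 and A004890, at 220.2, 219.9 and 219.4 CPM.

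All libraries came from wild-type strain CBS6556, grown in chemostats at a dilution rate of 0.1 per hour and pH 6 in a urea medium with antifoam. With full aeration the feed held 7.5 g/L glucose and ergosterol at 10 mg/L, and Tween 80, a source of unsaturated fatty acid, was at 0 mg/L. Under oxygen limitation glucose was raised to 20 g/L, Tween 80 was present at 420 mg/L and ergosterol stayed at 10 mg/L. Anaerobic TE cultures had the feed of the oxygen-limited ones, and anaerobic T cultures differed from TE by ergosterol at 0 mg/L. Each of the 4 groups had 2 libraries, which the submitters call biological replicates. As no label says that they came from separate vessels, p-values measure the spread between libraries, which may in part be technical. The series also holds S. cerevisiae libraries, which were not used here. Oxygen-limited and aerobic cultures differ in oxygen, glucose, Tween 80 and title code, and the same holds for TE and aerobic cultures. The title code is the first part of the sample title, whose meaning the labels do not give. TE and oxygen-limited cultures differ in oxygen and title code. These differences cannot be told apart in the 8 libraries. Only T and TE share their title code. Their titles end in different digits, which no label explains, so that ending cannot be told apart from ergosterol.

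K. marxianus is a budding yeast of the same family as S. cerevisiae, from which it separated before the whole-genome duplication in the S. cerevisiae lineage. It is known for taking up sugars such as lactose, which S. cerevisiae does not use, and it grows poorly without oxygen. Budding yeasts need molecular oxygen to make sterols and unsaturated fatty acids, and S. cerevisiae grows without oxygen when both are supplied. Genes that 1 yeast has and its relatives lack often encode transporters, secreted enzymes, cell-surface proteins or short proteins of unknown role, and many of them lie near chromosome ends.

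The files name these genes by number, and give no product names. Gene Ontology (GO) terms were attached to 112 of the 200 genes (56.0%), against 38.7% of the 964 other genes with an empty entry and nearly all genes with an entry. An empty entry did not show that S. cerevisiae lacks a relative. Several of the 200 carried terms of functions that S. cerevisiae has as well. KM6556v0_E004160 had the term for 2-isopropylmalate synthase, the enzyme that opens leucine synthesis. KM6556v0_F000920 had that of methylenetetrahydrofolate dehydrogenase of one-carbon metabolism, and KM6556v0_E004980 that of ubiquinol-cytochrome c reductase of the respiratory chain. KM6556v0_B004150 had that of stearoyl-CoA desaturase, which needs oxygen. How the authors assigned the entry is not given in the sources used here, so the genes are described as genes with an empty reference entry.

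Place, size and terms of the 200 genes were set beside those of the rest as a description, without a test. Within 20 kb of the first base of a chromosome or of its last annotated gene lay 31 of them (15.5%), against 5.71% of the other genes with an empty entry and 1.11% of the genes with an entry. Their median length was 1109 bases, against 900 bases for the other genes with an empty entry and 1251 bases for genes with an entry. A length under 500 bases was found in 45 of them (22.5%), against 9.15% of genes with an entry. Terms for transport were carried by 31 (15.5%), against 15.9% of genes with an entry and 5.29% of the other genes with an empty entry. Oxidoreductase terms were carried by 23 (11.5%), against 6.06% and 3.53%. The remaining classes were 16 genes with other enzyme terms, 11 with transcription terms, 8 with cell-wall or surface terms, 23 with other terms and 88 with none. The classes were formed from the terms after the values had been seen.

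Library totals of K. marxianus ranged from 6510449 to 10660870 counts. No member fell to 0 in any library, and the lowest count of a member in a library was 6. Replicates were close in 3 groups and not in the fourth. Between the replicates of a group, 0 aerobic, 1 oxygen-limited and 0 TE members differed by more than 1 on the log2 scale, against 36 (18.0%) in the T group, where 10.0% of all genes did. CPM of the T group are therefore given by library. Levels below are CPM scaled by the trimmed mean of M-values (TMM), which compare a gene between libraries as a share of the RNA pool and not per cell. Fold changes are log2 values of edgeR's quasi-likelihood fit across all genes, with their standard error (SE) and a Benjamini-Hochberg adjusted p over the 5143 genes tested. A gene was called at an adjusted p under 0.05.

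Genes with an empty entry took a larger part of the RNA pool with full oxygen than without. The 200 members held 15.4% and 15.1% of all counts in the aerobic libraries, 9.22% and 9.17% in the oxygen-limited, 7.70% and 7.80% in the TE and 8.47% and 8.84% in the T libraries. The groups did not overlap in this share. The 10 highest members made up most of the gap, with 6.69% and 6.61% of counts in the aerobic libraries, 1.66% and 1.61% in the oxygen-limited, 1.32% and 1.25% in the TE and 2.15% and 1.68% in the T libraries. All 1164 genes with an empty entry held 20.1% and 19.6% in the aerobic libraries and 11.7% in both TE libraries. These shares are a description, since the levels chose the members. The largest group mean was aerobic for 71 members, oxygen-limited for 57, TE for 25 and T for 47.

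**Figure D1:**
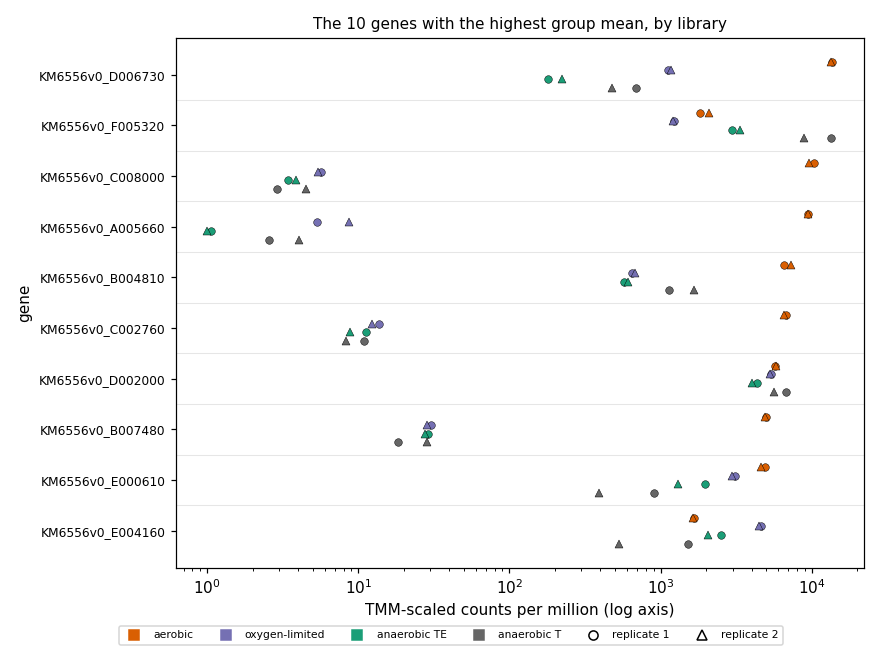
The 10 genes with the highest group mean are plotted in rows, with the TMM-scaled CPM of each library on a log axis, colours for groups, circles for replicate 1 and triangles for replicate 2. Of the 10, KM6556v0_C008000, KM6556v0_A005660, KM6556v0_C002760 and KM6556v0_B007480 lie at or above 4877 CPM in the aerobic libraries and under 31 CPM in every other library, while KM6556v0_D002000 lies between 4047 and 6793 CPM in all 8.

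Among the 10 highest, 8 had their largest group mean of plain CPM in the aerobic cultures. KM6556v0_D006730, with oxidoreductase and zinc-ion terms and located on chromosome 4, bases 1389223 to 1390296 in the authors' CBS6556 annotation, had 13680 and 13375 CPM in the aerobic libraries, 1119 and 1178 in the oxygen-limited, 179 and 225 in the TE and 692 and 479.6 in the T libraries. It was high with full oxygen, far lower under oxygen limitation and lower again in TE, and no groups overlapped. The log2 fold change was -3.56 (SE 0.22, edgeR adjusted p = 2.6e-05) in oxygen-limited against aerobic cultures. In TE against oxygen-limited cultures it was -2.51 (SE 0.21, edgeR adjusted p = 0.000174). KM6556v0_C008000, also with an oxidoreductase term, had 10355 and 9583 CPM in the aerobic libraries, 5.68 and 5.40 in the oxygen-limited, 3.41 and 3.88 in the TE and 2.89 and 4.55 in the T libraries. It was abundant in the aerobic libraries and near the bottom of the range in the 6 others, with a log2 fold change of -10.81 (SE 0.26, edgeR adjusted p = 6.94e-07) in oxygen-limited against aerobic cultures. KM6556v0_B004810 is 390 bases long and has no term. It had 6582 and 7319 CPM in the aerobic libraries, 649 and 682 in the oxygen-limited, 569 and 610.1 in the TE and 1135 and 1671 in the T libraries, so that the aerobic libraries stood clear of the rest. Per kilobase it was the highest member in the aerobic group, at 17822 CPM per kb, above KM6556v0_D006730 at 12596 CPM per kb.

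The other leading genes did not follow the aerobic pattern. KM6556v0_F005320, 411 bases long and without a term, had 1824 and 2084 CPM in the aerobic libraries, 1219 and 1218 in the oxygen-limited, 2969 and 3365 in the TE and 13386 and 8954 in the T libraries. Its T libraries were the highest and its oxygen-limited libraries the lowest, and no groups overlapped. Per kilobase its mean of the 2 T libraries was 27177 CPM per kb, the highest of the members. KM6556v0_D002000, also without a term, had 5692 and 5766 CPM in the aerobic libraries, 5355 and 5282 in the oxygen-limited, 4352 and 4047 in the TE and 6793 and 5596 in the T libraries. Its range was narrow, but it was called lower in TE against aerobic cultures, at -0.45 (SE 0.14, edgeR adjusted p = 0.0286). That call was lost without any 1 of the aerobic, oxygen-limited or TE libraries. In T against TE cultures KM6556v0_D002000 was called higher, at 0.56 (SE 0.14, edgeR adjusted p = 0.0201). This call was lost when scaled by plain library size and when T and TE libraries were fitted alone. It was also lost without aerobic replicate 1, oxygen-limited replicate 1 or either TE library. KM6556v0_E000610 had 4919 and 4650 CPM in the aerobic libraries, 3099 and 2982 in the oxygen-limited, 1973 and 1313 in the TE and 911 and 389.9 in the T libraries, a stepwise order from aerobic to T in which neighbouring groups did not overlap, although the log2 fold change of -0.65 (SE 0.37, edgeR adjusted p = 0.189) in oxygen-limited against aerobic cultures was not called. KM6556v0_E004160, the gene with the 2-isopropylmalate synthase term, had 1658 and 1633 CPM in the aerobic libraries, 4611 and 4496 in the oxygen-limited, 2524 and 2047 in the TE and 1522 and 533 in the T libraries. It was highest under oxygen limitation, and its 2 T libraries lay far apart. The log2 fold change was 1.47 (SE 0.42, edgeR adjusted p = 0.0257) in oxygen-limited against aerobic cultures. That call was lost without any 1 of the aerobic or oxygen-limited libraries. In TE against oxygen-limited cultures the log2 fold change was -0.99 (SE 0.42, edgeR adjusted p = 0.0826), which was not called.

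Most members were called in the comparisons of oxygen regimes. In oxygen-limited against aerobic cultures 77 members were higher and 70 lower, 73.5% of the 200, beside 47.0% of all genes tested (22.0% higher, 25.0% lower). In TE against aerobic cultures 74 were higher and 78 lower, 76.0% beside 56.5% of all genes (27.9% higher, 28.6% lower). In TE against oxygen-limited cultures 45 were higher and 77 lower, 61.0% beside 52.0% of all genes (25.7% higher, 26.3% lower). In T against TE cultures 51 were higher and 40 lower, 45.5% beside 37.3% of all genes (18.9% higher, 18.4% lower). The rule favours genes that are high in 1 group, so nothing is read from these shares. The median log2 fold change of the members was 0.089, 0.022, -0.29 and 0.041 in the same order, and that of all genes -0.078, -0.020, -0.016 and 0.033. Changes past 1 on the log2 scale that were also called numbered 107, 111, 82 and 44, or 53.5%, 55.5%, 41.0% and 22.0% of the members, beside 19.9%, 25.7%, 21.0% and 9.51% of all genes. The libraries of the compared groups did not overlap for 191, 191, 181 and 133 members, beside 87.4%, 87.7%, 86.1% and 62.8% of all genes. The 3 comparisons that involve TE share its 2 libraries, and the 2 against aerobic cultures share the aerobic libraries.

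**Figure D2:**
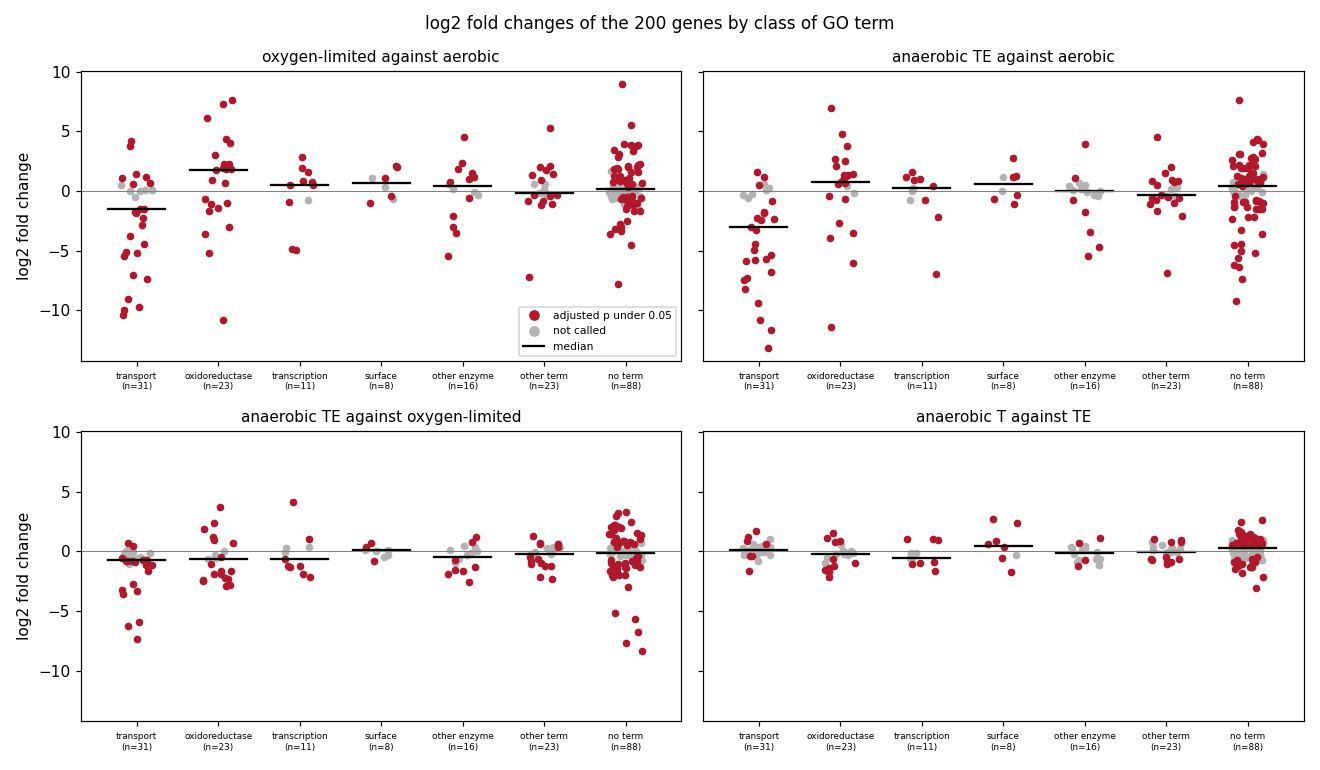
Each point is 1 of the 200 genes, by class of GO term, with its log2 fold change in the 4 comparisons. Red points were called at an adjusted p under 0.05, grey points were not, and black bars are class medians; the transport class has a median of -1.52 in oxygen-limited against aerobic cultures and -2.99 in TE against aerobic cultures.

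Of the 31 members with transport terms, 20 had their largest mean in the aerobic, 9 in the oxygen-limited, 0 in the TE and 2 in the T group, by the same values that chose the members. In oxygen-limited against aerobic cultures 17 fell, 7 rose and 7 were not called (of all genes, 25.0% fell and 22.0% rose), and the class median was -1.52 on the log2 scale. In TE against aerobic cultures 22 fell, 3 rose and 6 were not called (of all genes, 28.6% fell and 27.9% rose), with a median of -2.99. In TE against oxygen-limited cultures 17 fell, 2 rose and 12 were not called (of all genes, 26.3% fell and 25.7% rose). In T against TE cultures 3 fell, 4 rose and 24 were not called (of all genes, 18.4% fell and 18.9% rose). Since the members were chosen by level, these counts and those of the classes below are a description, and nothing is read from them against the shares of all genes. For most of them the terms do not say what is carried. KM6556v0_B000100, with the term of amino acid transport, had 232 and 231 CPM in the aerobic libraries, 84.6 and 76.6 in the oxygen-limited, 42.2 and 46.1 in the TE and 34.2 and 72.8 in the T libraries, and fell by -1.52 (SE 0.30, edgeR adjusted p = 0.00541) in oxygen-limited against aerobic cultures.

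Among the transport genes that fell were 3 neighbours on chromosome 1. KM6556v0_A005660 lies on chromosome 1, bases 1133752 to 1136626, and KM6556v0_A005670 and KM6556v0_A005680 follow it on the same strand. KM6556v0_A005660 had 9488 and 9506 CPM in the aerobic libraries, 5.36 and 8.69 in the oxygen-limited, 1.06 and 1.01 in the TE and 2.57 and 4.08 in the T libraries. KM6556v0_A005670 had 3182 and 3089 CPM in the aerobic libraries, 3.0 and 3.3 in the oxygen-limited, 0.705 and 1.29 in the TE and 1.44 and 2.51 in the T libraries. KM6556v0_A005680 had 1396 and 1437 CPM in the aerobic libraries, 11 and 11.1 in the oxygen-limited, 4.58 and 5.17 in the TE and 5.94 and 7.37 in the T libraries. All 3 were abundant in both aerobic libraries and stood at 11.1 CPM or less in each of the other 6. In oxygen-limited against aerobic cultures their log2 fold changes were -10.40, -9.96 and -7.00, with SE of 0.33, 0.29 and 0.16 and edgeR adjusted p of 1.61e-06, 1.08e-06 and 6.94e-07. All 3 were lower still in TE than in oxygen-limited cultures, by log2 fold changes of -2.75, -1.67 and -1.19, a difference carried by levels of a few CPM. KM6556v0_A005680 overlaps another gene, and reads in the shared bases were not counted for either.

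Transport genes on other chromosomes were also high in the aerobic libraries and low in the rest. KM6556v0_C002760 had 6786 and 6609 CPM in the aerobic libraries, 13.8 and 12.3 in the oxygen-limited, 11.3 and 8.76 in the TE and 10.9 and 8.31 in the T libraries. It lies on chromosome 3, bases 549935 to 550984, and 235 bases separate it from KM6556v0_C002750, a gene of 234 bases without a term on the opposite strand. KM6556v0_C002750 had 1666 and 1717 CPM in the aerobic libraries, 8.25 and 7.52 in the oxygen-limited, 2.47 and 3.30 in the TE and 3.53 and 2.67 in the T libraries. Both were abundant in the aerobic libraries and at or under 13.8 CPM in the others, and the log2 fold changes in oxygen-limited against aerobic cultures were -9.00 and -7.74. KM6556v0_G001250 had 3526 and 3327 CPM in the aerobic libraries, 2.46 and 5.51 in the oxygen-limited, 1.53 and 2.30 in the TE and 2.41 and 1.73 in the T libraries, a log2 fold change of -9.74 (SE 0.41, edgeR adjusted p = 4.73e-06) in oxygen-limited against aerobic cultures. Without oxygen-limited replicate 2 that value was -10.37. KM6556v0_B007480 had 4969 and 4877 CPM in the aerobic libraries, 30.5 and 28.5 in the oxygen-limited, 29 and 27.7 in the TE and 18.3 and 28.5 in the T libraries, and its aerobic level was again far from the rest. It shares an annotation entry with KM6556v0_B007440, which had 1757 and 1659 CPM in the aerobic libraries, 84.8 and 76.8 in the oxygen-limited, 59.1 and 54.5 in the TE and 37.5 and 70.9 in the T libraries. Whether the 2 genes share reads was not tested, so their values may be uncertain.

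Other transport genes fell by less or kept a floor. KM6556v0_B005320 had 2245 and 2233 CPM in the aerobic libraries, 65.8 and 66.7 in the oxygen-limited, 43 and 39.4 in the TE and 39 and 71.1 in the T libraries, KM6556v0_G000060 had 1605 and 1577 CPM in the aerobic libraries, 39.1 and 34.3 in the oxygen-limited, 32 and 31.2 in the TE and 23.6 and 44.1 in the T libraries, and KM6556v0_E000260 had 1323 and 1222 CPM in the aerobic libraries, 34 and 34.4 in the oxygen-limited, 32.3 and 28.6 in the TE and 21.3 and 28.2 in the T libraries. In all 3 the aerobic libraries exceeded the others by more than an order of magnitude, and the other groups lay close together. KM6556v0_B007470 and KM6556v0_G000070, 2 genes near chromosome ends whose levels agreed within 1.25-fold in every library, had 2663 and 2501 CPM in aerobic replicate 1 and 784 and 688 CPM in oxygen-limited replicate 1. They may share reads, so their values are uncertain. Their log2 fold changes in oxygen-limited against aerobic cultures were -1.77 and -1.88.

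**Figure D3:**
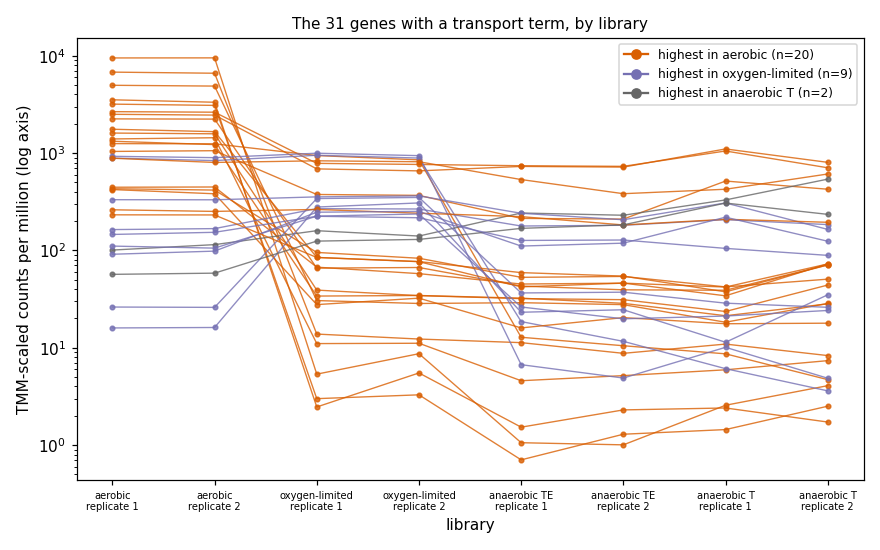
Each line is 1 of the 31 genes with a transport term, and joins its TMM-scaled CPM in the 8 libraries on a log axis, coloured by the group with its largest mean. Most lines of the 20 genes highest in aerobic cultures drop at the oxygen-limited libraries, while a few lines drop at the TE libraries.

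In a further set of transport genes the level under oxygen limitation stood near the aerobic level and was nearly lost without oxygen. KM6556v0_H004530, a gene of 654 bases near the end of chromosome 8, had 926 and 897 CPM in the aerobic libraries, 996 and 941 in the oxygen-limited, 6.70 and 4.89 in the TE and 10.1 and 4.86 in the T libraries. Its aerobic and oxygen-limited levels lay between 897 and 996 CPM, and the log2 fold change in TE against oxygen-limited cultures was -7.37 (SE 0.35, edgeR adjusted p = 2.53e-05). KM6556v0_C000020, near the end of chromosome 3, had 888 and 837 CPM in the aerobic libraries, 949 and 889 in the oxygen-limited, 18.6 and 11.6 in the TE and 6.10 and 3.61 in the T libraries, with a log2 fold change of -5.92 (SE 0.29, edgeR adjusted p = 2.71e-05) in the same comparison. It overlaps another gene. KM6556v0_A008590, the last listed gene of its chromosome end, had 1250 and 1244 CPM in the aerobic libraries, 943 and 852 in the oxygen-limited, 12.8 and 10.5 in the TE and 8.66 and 4.71 in the T libraries and a log2 fold change of -6.26 (SE 0.28, edgeR adjusted p = 2.02e-05). The 3 genes had no called difference between oxygen-limited and aerobic cultures, with log2 fold changes of 0.088, 0.091 and -0.47 and SE of 0.25, 0.23 and 0.22.

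Next to 2 of these genes lay short genes that were also low without oxygen. KM6556v0_H004540 and KM6556v0_C000010 are both 432 bases long, have no term, and stand on the opposite strand of KM6556v0_H004530 and KM6556v0_C000020. KM6556v0_H004540 had 629 and 583 CPM in the aerobic libraries, 425 and 366 in the oxygen-limited, 4.47 and 2.59 in the TE and 2.89 and 0.941 in the T libraries. KM6556v0_C000010 had 448 and 393 CPM in the aerobic libraries, 301 and 281 in the oxygen-limited, 5.88 and 5.75 in the TE and 1.93 and 1.41 in the T libraries. Each was at 281 CPM or more in the libraries with oxygen and under 6 CPM in every anaerobic library, with log2 fold changes of -6.78 and -5.64 in TE against oxygen-limited cultures. In oxygen-limited against aerobic cultures they were at -0.62 and -0.53, with edgeR adjusted p of 0.0858 and 0.0103, the latter a call lost without aerobic replicate 1 or without either oxygen-limited library. The counts were made without regard to strand, so reads that reach from a gene into its neighbour on the opposite strand cannot be told apart from the neighbour's own.

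**Figure D4:**
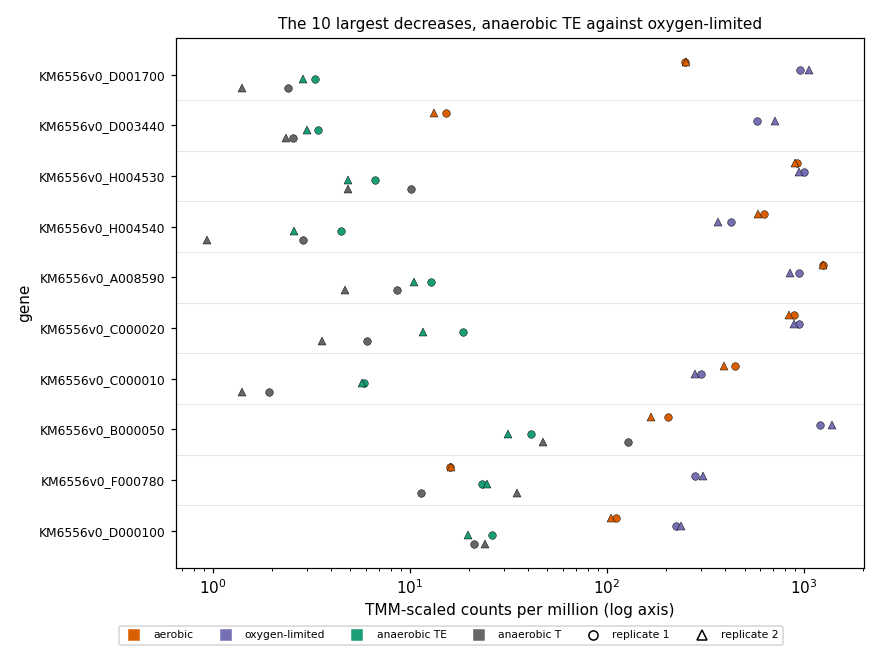
The 10 called genes with the largest decrease in anaerobic TE against oxygen-limited cultures are plotted in rows, with the TMM-scaled CPM of each library on a log axis. In every row the oxygen-limited libraries lie to the right of the TE and T libraries; in KM6556v0_H004530, KM6556v0_C000020 and KM6556v0_A008590 the aerobic libraries lie beside the oxygen-limited ones, and in KM6556v0_D003440 and KM6556v0_F000780 they lie nearer the TE and T libraries.

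A smaller set of transport genes was highest under oxygen limitation. KM6556v0_C002360 had 26.2 and 26 CPM in the aerobic libraries, 341 and 350.0 in the oxygen-limited, 36.6 and 37.2 in the TE and 28.7 and 26 in the T libraries, and KM6556v0_F000780 had 16 and 16.2 CPM in the aerobic libraries, 279 and 307 in the oxygen-limited, 23.2 and 24.6 in the TE and 11.4 and 35 in the T libraries. Both rose against aerobic cultures, by log2 fold changes of 3.73 (SE 0.11, edgeR adjusted p = 1.19e-06) and 4.19 (SE 0.43, edgeR adjusted p = 0.000311), and fell in TE cultures by -3.23 and -3.62. KM6556v0_D000100 had 111 and 106 CPM in the aerobic libraries, 225 and 237 in the oxygen-limited, 26.2 and 19.8 in the TE and 21.2 and 24.2 in the T libraries, a moderate rise of 1.09 followed by a fall of -3.32. In these genes the oxygen-limited libraries did not overlap any other group.

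Members with oxidoreductase terms changed in both directions. In oxygen-limited against aerobic cultures 14 rose, 9 fell and 0 were not called, and the class median was 1.74 on the log2 scale. In TE against aerobic cultures 14 rose, 7 fell and 2 were not called, with a median of 0.74. In TE against oxygen-limited cultures 6 rose, 12 fell and 5 were not called, with a median of -0.61, and in T against TE cultures 4 rose, 7 fell and 12 were not called. Of all genes, 22.0% rose and 25.0% fell in oxygen-limited against aerobic, and 27.9% and 28.6% in TE against aerobic cultures. In TE against oxygen-limited cultures 25.7% of all genes rose and 26.3% fell, and in T against TE cultures 18.9% and 18.4%. The oxygen-limited mean was the largest in 12 of the 23.

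Among the genes that rose was a neighbouring pair on chromosome 4. KM6556v0_D002460, on chromosome 4, bases 518648 to 519670, and KM6556v0_D002470 carry a term for oxidoreductases that act on aldehyde or oxo groups, and 49 bases separate them on the same strand. KM6556v0_D002460 had 15.6 and 15.1 CPM in the aerobic libraries, 2766 and 3092 in the oxygen-limited, 442 and 393 in the TE and 620.3 and 893 in the T libraries, and KM6556v0_D002470 had 3.87 and 3.90 CPM in the aerobic libraries, 268 and 261 in the oxygen-limited, 54.3 and 49.9 in the TE and 56.3 and 46.6 in the T libraries. Both were lowest in aerobic and highest in oxygen-limited cultures, with the anaerobic libraries between. The log2 fold changes in oxygen-limited against aerobic cultures were 7.57 (SE 0.25, edgeR adjusted p = 1.82e-06) and 6.08 (SE 0.16, edgeR adjusted p = 8.1e-07). KM6556v0_C001640, with oxidoreductase and zinc-ion terms, had 3.47 and 3.62 CPM in the aerobic libraries, 558 and 543 in the oxygen-limited, 486 and 416 in the TE and 523 and 311 in the T libraries. It was under 4 CPM with full oxygen and at 311 CPM or more in the other 6 libraries, and its TE and oxygen-limited levels did not differ by a called amount, with a log2 fold change of -0.29 (SE 0.23, edgeR adjusted p = 0.328).

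Several oxidoreductases were highest under oxygen limitation and lower without oxygen. KM6556v0_F004180 carries heme, iron and monooxygenase terms, as cytochrome P450 enzymes do, which use molecular oxygen. It had 44.6 and 49.9 CPM in the aerobic libraries, 927 and 979.6 in the oxygen-limited, 134 and 121 in the TE and 41.5 and 33.3 in the T libraries, with a log2 fold change of 4.33 (SE 0.16, edgeR adjusted p = 2.91e-06) in oxygen-limited against aerobic and -2.90 (SE 0.15, edgeR adjusted p = 3.18e-05) in TE against oxygen-limited cultures. The monooxygenase gene KM6556v0_C000070 went the other way, with 139 and 127 CPM in the aerobic libraries, 52.9 and 46.4 in the oxygen-limited, 259 and 260.4 in the TE and 183 and 79.7 in the T libraries, the oxygen-limited libraries being the lowest. 3 genes carry the term of D-amino-acid oxidase, a flavin enzyme that deaminates D-amino acids with oxygen. KM6556v0_B006490 had 95.8 and 92.6 CPM in the aerobic libraries, 438 and 449.8 in the oxygen-limited, 148 and 134 in the TE and 36.1 and 25.6 in the T libraries, and KM6556v0_A004560 had 85.4 and 86.8 CPM in the aerobic libraries, 416 and 431 in the oxygen-limited, 114 and 110.3 in the TE and 48.1 and 29.2 in the T libraries. KM6556v0_C007930 had 118 and 117 CPM in the aerobic libraries, 399.8 and 388 in the oxygen-limited, 299 and 280.0 in the TE and 269 and 237 in the T libraries. All 3 rose under oxygen limitation, by 2.24, 2.30 and 1.74 on the log2 scale with edgeR adjusted p of 5.68e-05, 0.00016 and 3.42e-05, and in TE cultures KM6556v0_C007930 was still higher than with full oxygen (edgeR adjusted p = 9.31e-05). In TE against aerobic cultures the log2 fold change of KM6556v0_A004560 was 0.38 (SE 0.20, edgeR adjusted p = 0.145), which was not called. That of KM6556v0_B006490 was 0.58 (SE 0.16, edgeR adjusted p = 0.0175), a call lost without either aerobic library or without TE replicate 1. KM6556v0_F004180 was likewise higher in TE than in aerobic cultures, by 1.44 (SE 0.15, edgeR adjusted p = 0.000188).

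Falls and late rises completed the class. KM6556v0_A008100 had 2376 and 2263 CPM in the aerobic libraries, 60.8 and 65.9 in the oxygen-limited, 155 and 142 in the TE and 143 and 152 in the T libraries, a loss of most of its aerobic level in all other groups. KM6556v0_E004980, with the ubiquinol-cytochrome c reductase term, had 377 and 384 CPM in the aerobic libraries, 182 and 191 in the oxygen-limited, 58.7 and 57 in the TE and 34 and 69 in the T libraries, and stepped down from aerobic to oxygen-limited to TE cultures, by -1.03 (SE 0.27, edgeR adjusted p = 0.0182) and then -1.69 (SE 0.28, edgeR adjusted p = 0.00248). KM6556v0_A006970 carries the term of glutathione peroxidase, which removes peroxides with glutathione. It had 18.4 and 19.6 CPM in the aerobic libraries, 8.14 and 10.2 in the oxygen-limited, 97.7 and 140.1 in the TE and 178 and 334 in the T libraries, with a log2 fold change of 3.69 (SE 0.35, edgeR adjusted p = 0.000275) in TE against oxygen-limited cultures. It was lowest under oxygen limitation and highest without oxygen. The step from aerobic to oxygen-limited cultures was smaller, with a log2 fold change of -1.05, and its call was lost when scaled by plain library size. The call was also lost without any 1 of the aerobic, oxygen-limited or TE libraries. KM6556v0_B004150, with the stearoyl-CoA desaturase term, had 100.1 and 105 CPM in the aerobic libraries, 170.5 and 161 in the oxygen-limited, 179 and 164 in the TE and 293 and 282 in the T libraries, a small rise of 0.75 (SE 0.11, edgeR adjusted p = 0.00322) in T against TE cultures.

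Of the 16 members with other enzyme terms, 7 rose and 5 fell in oxygen-limited against aerobic cultures. In TE against aerobic cultures 2 rose and 5 fell. Of all genes, 22.0% rose and 25.0% fell in the former comparison, and 27.9% rose and 28.6% fell in the latter. KM6556v0_B000040, a gene with the term of O-glycosyl hydrolases, had 3936 and 3871 CPM in the aerobic libraries, 87.6 and 94.3 in the oxygen-limited, 94.4 and 87.5 in the TE and 71.2 and 87.7 in the T libraries. It fell by the same amount in both low-oxygen groups, with log2 fold changes of -5.42 and -5.42. KM6556v0_B000020, which carries the term of the beta-galactosidase complex, the enzyme that splits lactose, had 437 and 399.5 CPM in the aerobic libraries, 40.1 and 31.9 in the oxygen-limited, 37.1 and 38.5 in the TE and 36.4 and 56 in the T libraries. It lies on chromosome 2, bases 10360 to 13437, near the chromosome end, and fell by -3.54 (SE 0.22, edgeR adjusted p = 2.74e-05) in oxygen-limited against aerobic cultures. Glucose was the sugar the labels give. KM6556v0_B000050, a gene without a term that follows KM6556v0_B000040, had 205 and 167 CPM in the aerobic libraries, 1206 and 1393 in the oxygen-limited, 41.4 and 31.5 in the TE and 129 and 47.2 in the T libraries, and was highest under oxygen limitation.

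A run of 3 neighbours near the end of chromosome 4 held the highest member. KM6556v0_D006720, with a lipid metabolism term, stands between KM6556v0_D006710 and KM6556v0_D006730 on 1 strand. It had 697 and 692 CPM in the aerobic libraries, 166 and 158 in the oxygen-limited, 27.9 and 25.3 in the TE and 45.7 and 39.4 in the T libraries, and fell with KM6556v0_D006730, by -2.10 (SE 0.12, edgeR adjusted p = 1.98e-05) in oxygen-limited against aerobic cultures and -2.60 (SE 0.13, edgeR adjusted p = 2.56e-05) in TE against oxygen-limited cultures. KM6556v0_D006710, without a term, had 211 and 224 CPM in the aerobic libraries, 307 and 284 in the oxygen-limited, 169.9 and 187 in the TE and 381 and 194 in the T libraries, and no comparison called it. KM6556v0_C001090 and KM6556v0_C001080, neighbours with the same acyltransferase term, moved together. KM6556v0_C001090 had 911 and 866 CPM in the aerobic libraries, 3003 and 3271 in the oxygen-limited, 995 and 712 in the TE and 628 and 303 in the T libraries, and KM6556v0_C001080 had 271 and 274 CPM in the aerobic libraries, 612 and 602 in the oxygen-limited, 236 and 163 in the TE and 120.3 and 50.2 in the T libraries. Both were highest under oxygen limitation, with log2 fold changes of 1.82 and 1.16 against aerobic cultures. KM6556v0_G000850, with a protein glycosylation term, rose from 10.5 and 12 CPM in the aerobic libraries to 268 and 248 CPM in the oxygen-limited libraries, a log2 fold change of 4.52 (SE 0.66, edgeR adjusted p = 0.00154).

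Members with transcription terms numbered 11, of which 7 rose, 3 fell and 1 was not called in oxygen-limited against aerobic cultures. In TE against oxygen-limited cultures 2 rose, 6 fell and 3 were not called. Of all genes, 22.0% rose and 25.0% fell in the former comparison, and 25.7% rose and 26.3% fell in the latter. KM6556v0_E002820, with terms of an RNA polymerase II transcription factor, had 873 and 835 CPM in the aerobic libraries, 28.2 and 32 in the oxygen-limited, 6.35 and 7.18 in the TE and 14.6 and 12.7 in the T libraries. It was high in aerobic cultures and low in the rest, with a log2 fold change of -4.83 (SE 0.14, edgeR adjusted p = 1.19e-06) under oxygen limitation. KM6556v0_A007200, with terms of the same kind, had 368 and 371 CPM in the aerobic libraries, 10.8 and 13.6 in the oxygen-limited, 224 and 206 in the TE and 65.6 and 211 in the T libraries. Its oxygen-limited libraries were the lowest by far, with log2 fold changes of -4.92 (SE 0.54, edgeR adjusted p = 0.000403) against aerobic cultures and 4.14 (SE 0.52, edgeR adjusted p = 0.000799) for TE against oxygen-limited cultures. KM6556v0_C002370, the neighbour of the transport gene KM6556v0_C002360 on the opposite strand, had 43.5 and 41.3 CPM in the aerobic libraries, 301 and 293 in the oxygen-limited, 137 and 119 in the TE and 64 and 65.2 in the T libraries, and rose with it under oxygen limitation, by 2.81 (SE 0.12, edgeR adjusted p = 4.73e-06).

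Of the 8 members with cell-wall or surface terms, 3 rose and 2 fell in oxygen-limited against aerobic cultures. In TE against aerobic cultures 3 rose and 3 fell, and in TE against oxygen-limited cultures 2 rose and 1 fell. In the same order, 22.0%, 27.9% and 25.7% of all genes rose and 25.0%, 28.6% and 26.3% fell. KM6556v0_A004000, with a fungal cell-wall term, had 52.1 and 47.6 CPM in the aerobic libraries, 194 and 212 in the oxygen-limited, 308 and 358 in the TE and 105 and 98 in the T libraries, and rose by 2.02 and 2.74 on the log2 scale in oxygen-limited and TE cultures against aerobic ones, with edgeR adjusted p of 2.84e-05 and 5.46e-06. It fell again in T cultures, by -1.72 (SE 0.13, edgeR adjusted p = 0.00169) against TE. 3 genes carry the term for flocculation, the clumping of cells through surface proteins. KM6556v0_G004580 had 154 and 148 CPM in the aerobic libraries, 331 and 328 in the oxygen-limited, 356 and 318 in the TE and 249.8 and 199 in the T libraries and the 2 others are described with the T cultures.

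The 88 members without a term held several of the steepest courses. KM6556v0_A003270, 249 bases long, had 1.89 and 1.49 CPM in the aerobic libraries, 858 and 827 in the oxygen-limited, 332 and 346 in the TE and 539 and 627 in the T libraries. It was under 2 CPM with full oxygen and at 332 CPM or more in all other libraries, the largest rise of a member in oxygen-limited against aerobic and in TE against aerobic cultures, with log2 fold changes of 8.96 (SE 0.20, edgeR adjusted p = 6.94e-07) and 7.64 (SE 0.19, edgeR adjusted p = 6.52e-07). KM6556v0_B003080 and KM6556v0_H003840, both 249 bases long, were also low with full oxygen. KM6556v0_B003080 had 129.6 and 125 CPM in the aerobic libraries, 1227 and 1297 in the oxygen-limited, 2045 and 2227 in the TE and 1719 and 2046 in the T libraries, and KM6556v0_H003840 had 88.3 and 88.8 CPM in the aerobic libraries, 1136 and 1266 in the oxygen-limited, 1793 and 1684 in the TE and 1498 and 1243 in the T libraries. Both rose by more than 3 on the log2 scale in each of the comparisons against aerobic cultures. From oxygen-limited to TE cultures KM6556v0_A003270 had a log2 fold change of -1.31 (SE 0.13, edgeR adjusted p = 0.000363). KM6556v0_B003080 rose there by 0.76 (SE 0.14, edgeR adjusted p = 0.00349) and KM6556v0_H003840 by 0.53 (SE 0.14, edgeR adjusted p = 0.0165), the latter a call lost without any 1 of the oxygen-limited or TE libraries. KM6556v0_D005550, of 258 bases, had 15.2 and 16.2 CPM in the aerobic libraries, 220.3 and 230.0 in the oxygen-limited, 224 and 245 in the TE and 191 and 118 in the T libraries.

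Short genes without a term were also among those highest under oxygen limitation. KM6556v0_D003440 is 387 bases long and had 15.3 and 13.3 CPM in the aerobic libraries, 577 and 716 in the oxygen-limited, 3.41 and 3.02 in the TE and 2.57 and 2.35 in the T libraries. Its log2 fold change was 5.50 (SE 0.17, edgeR adjusted p = 1.43e-06) in oxygen-limited against aerobic and -7.64 (SE 0.20, edgeR adjusted p = 3.32e-06) in TE against oxygen-limited cultures. KM6556v0_D001700 is 252 bases long and had 249 and 251 CPM in the aerobic libraries, 961 and 1066 in the oxygen-limited, 3.29 and 2.87 in the TE and 2.41 and 1.41 in the T libraries. It was present with full oxygen, higher under oxygen limitation and under 4 CPM without oxygen, with the largest fall of a member in TE against oxygen-limited cultures, -8.35 (SE 0.22, edgeR adjusted p = 3.32e-06).

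A set of genes without a term had its lowest level under oxygen limitation and rose without oxygen. KM6556v0_A000080 had 67.7 and 66.4 CPM in the aerobic libraries, 21.8 and 19.4 in the oxygen-limited, 188 and 185 in the TE and 338 and 228 in the T libraries, and KM6556v0_C003970 had 228 and 227 CPM in the aerobic libraries, 10.6 and 9.64 in the oxygen-limited, 68.7 and 92.7 in the TE and 105 and 109.6 in the T libraries. In both, the oxygen-limited libraries were the lowest, and TE exceeded oxygen-limited cultures by 3.18 (SE 0.20, edgeR adjusted p = 6.47e-05) and 2.99 (SE 0.17, edgeR adjusted p = 4.63e-05). KM6556v0_H003760 had 666 and 731 CPM in the aerobic libraries, 123 and 121 in the oxygen-limited, 999 and 1359 in the TE and 781 and 6634 in the T libraries, and the 2 T libraries were too far apart for a group level. KM6556v0_H004480 differed by being low in both oxygen-supplied groups, with 205 and 202 CPM in the aerobic libraries, 264 and 278 in the oxygen-limited, 1081 and 1334 in the TE and 2822 and 2530 in the T libraries. Its order was T above TE above oxygen-limited above aerobic, of which the last step was not called, with a log2 fold change of 0.41 (SE 0.15, edgeR adjusted p = 0.053). KM6556v0_F000040 and KM6556v0_D000870 also rose without oxygen, but did not share the low point under oxygen limitation. Their TE levels were 111 and 139 and 843 and 962 CPM, against oxygen-limited levels of 27.1 and 27 and 202.8 and 203.3 CPM. For KM6556v0_F000040 TE exceeded aerobic and oxygen-limited cultures alike, by log2 fold changes of 2.208 and 2.205. KM6556v0_D000870 was lowest in aerobic cultures, with a log2 fold change of 0.73 in oxygen-limited against aerobic cultures. That call was lost without any 1 of the aerobic or oxygen-limited libraries. In T cultures KM6556v0_F000040 and KM6556v0_D000870 parted, at 284 and 261 and 297 and 442 CPM.

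The comparison of T with TE cultures, which differ in ergosterol and in the ending of the title, gave calls that depended on the fit. With the spread estimated from all 4 groups, 51 members rose and 40 fell. With the 4 libraries of T and TE alone, edgeR called 0 members at the adjusted threshold, while 83 had an unadjusted p under 0.05. DESeq2 on all 4 groups called 61 higher and 47 lower. Scaling by plain library size gave 34 higher and 56 lower. That scaling moved the median of all genes from 0.033 to -0.18 on the log2 scale. The largest fall was in KM6556v0_E003100, of 480 bases and without a term, with 359 and 304 CPM in the aerobic libraries, 411 and 447 in the oxygen-limited, 392 and 287.5 in the TE and 32.1 and 47.1 in the T libraries and a log2 fold change of -3.10 (SE 0.24, edgeR adjusted p = 0.00169). Its 2 T libraries were the lowest of the 8. KM6556v0_G002290 had 64.2 and 66.2 CPM in the aerobic libraries, 43.8 and 48.1 in the oxygen-limited, 239 and 270.0 in the TE and 67.5 and 49.3 in the T libraries, a rise in TE that was absent in T, with a log2 fold change of -2.12 (SE 0.17, edgeR adjusted p = 0.00169). The D-amino-acid oxidase gene KM6556v0_B006490 fell by -2.19 (SE 0.17, edgeR adjusted p = 0.00169), KM6556v0_F004180 by -1.77 (SE 0.15, edgeR adjusted p = 0.00171) and the DNA-binding gene KM6556v0_G001700 by -1.62 (SE 0.16, edgeR adjusted p = 0.00171).

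Rises in T cultures were shared by both replicates in some genes and came from 1 replicate in others. KM6556v0_F005320 rose by 1.82 (SE 0.21, edgeR adjusted p = 0.00197), and both T libraries exceeded every other library. KM6556v0_A008570 had 27.7 and 34 CPM in the aerobic libraries, 57.2 and 57.6 in the oxygen-limited, 100.05 and 131 in the TE and 437 and 945 in the T libraries and a log2 fold change of 2.58 (SE 0.35, edgeR adjusted p = 0.00285), which was 1.92 without T replicate 2. KM6556v0_H000550 had 97.9 and 113 CPM in TE and 316 and 249 CPM in T libraries. By contrast the flocculation gene KM6556v0_H004440 had 127 and 127 CPM in the aerobic libraries, 255 and 279 in the oxygen-limited, 310.5 and 263 in the TE and 3164 and 452 in the T libraries, and its log2 fold change of 2.66 (SE 0.75, edgeR adjusted p = 0.0308) was 0.65 without T replicate 1. The flocculation gene KM6556v0_A008580 had 81.8 and 82.8 CPM in the aerobic libraries, 104 and 98.8 in the oxygen-limited, 89.3 and 78.5 in the TE and 728 and 121 in the T libraries, and its 2.34 (SE 0.69, edgeR adjusted p = 0.0354) was 0.52 without that library. KM6556v0_G000010 had 695 and 160.1 CPM in the T libraries and 78.2 and 78.7 CPM in TE, and its 2.45 (SE 0.58, edgeR adjusted p = 0.0169) was 1.03 without it. For these 3 genes replicate 1 of T stood apart from the other 7 libraries, and the calls of KM6556v0_H004440 and KM6556v0_A008580 were lost when any aerobic, oxygen-limited or TE library was left out. The call of KM6556v0_G000010 was lost when either TE library was left out.

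**Figure D5:**
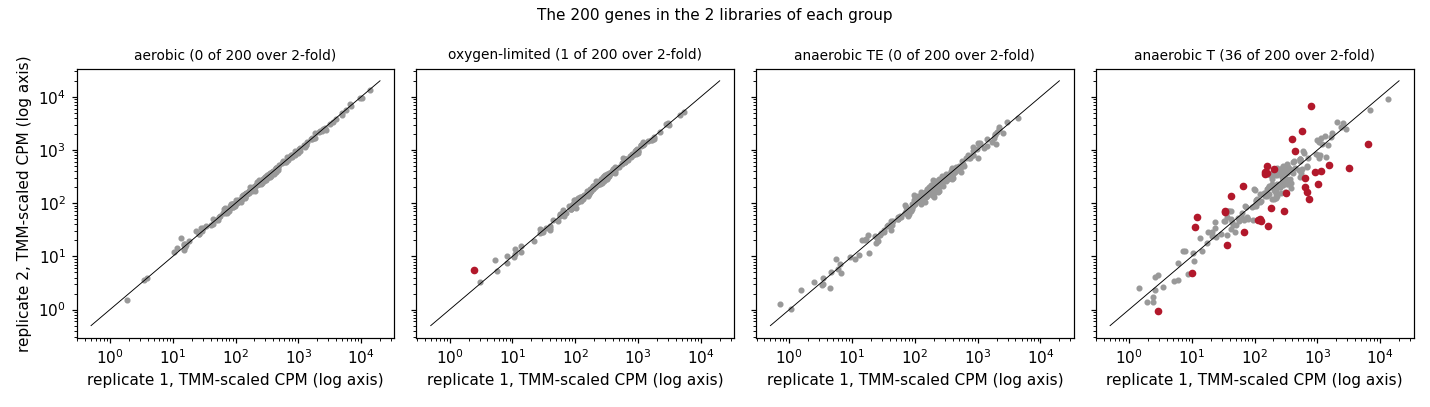
Each panel plots the 200 genes by their TMM-scaled CPM in replicate 1 and replicate 2 of 1 group, on log axes with the line of equality, and red points differ by more than 1 on the log2 scale. There are 0 red points in the aerobic, 1 in the oxygen-limited, 0 in the TE and 36 in the T panel, of which 21 are higher in replicate 1 and 15 in replicate 2.

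Members also lay beside each other. By position along the chromosomes, 47 of the 200 stood in 22 runs of neighbouring members, 3 of them of 3 genes and 19 of 2, which gave 25 neighbouring pairs. Both genes of a pair were called in the same direction in 13 pairs (52.0%) in oxygen-limited against aerobic, 16 (64.0%) in TE against aerobic, 10 (40.0%) in TE against oxygen-limited and 6 (24.0%) in T against TE cultures. For all 4985 neighbouring pairs of tested genes the shares were 16.1%, 20.1%, 16.7% and 10.3%. Because more members than other genes were called, these shares were not compared by a test. KM6556v0_B006210 and KM6556v0_B006220, divergent short genes 232 bases apart, had aerobic levels of 297 and 313 and 361 and 362 CPM and TE levels of 9.29 and 9.91 and 5.53 and 9.05 CPM, and fell together.

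The levels of some members were so close that they may not have been measured separately. KM6556v0_C003520, KM6556v0_C004990 and KM6556v0_B005700, on 2 chromosomes, agreed within 1.25-fold in every library, and had 91.7, 97.1 and 91.1 CPM in aerobic replicate 1 and 535, 529 and 527 CPM in T replicate 1. Their log2 fold changes in TE against aerobic cultures were 2.15, 2.15 and 2.12. Their lengths were 855, 717 and 717 bases. Near-identical copies could give such values, but no sequence was compared, so each is uncertain. The 4 members that overlap another gene (KM6556v0_B007440, KM6556v0_A005680, KM6556v0_C000020 and KM6556v0_H004090) are also uncertain, since reads in shared bases were not counted for either gene.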

How the data were processed

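Poly(A)-selected RNA was sequenced with a stranded kit, per the labels. The deposited counts are raw read-pair counts per gene, made by the authors with featureCounts 1.6.0 per the file headers, without a strand option, with both ends mapped and without chimeric pairs. Bowtie 1.2.1.1, SAMtools 1.3.1 and edgeR 3.28.1 are listed in the submitters' processing notes, which give no roles. The authors' deposited tables also hold log2 fold changes and p-values, compared with the counts in the last section. They supplied the reference entry and the GO terms.

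Members were chosen on plain CPM. Members, classes and lists were chosen with earlier results of these data known. Counts were fitted in R 4.3.3 with edgeR 4.0.16 (filterByExpr, TMM, quasi-likelihood F test), with the 8 K. marxianus libraries, 4 group means and 4 residual degrees of freedom. The biological coefficient of variation was 15.5%. Dividing a log2 fold change's size by the root of its F statistic gave the SE. With 2 libraries a group, an exact permutation test cannot pass the threshold, so none was run. DESeq2 1.42.0, other scalings, leaving out libraries and other rankings were the alternatives.

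The text names the 10 highest members, those just inside and outside the list, the 10 highest and 10 lowest called log2 fold changes per comparison without overlap between groups, runs of at least 3 neighbours, the beta-galactosidase gene, up to 4 genes per class of term and up to 6 genes without a term per group. Not all of these are described. The files give GO terms in place of product text, so the classes were formed from the terms. A000360, A008100, B000100, B004150, B005320, B005700, B007440, B007470, C001080, C001090, C002360, C003520, C004990, C007930, E000260, E002580, E002830, E004980, F000920, G000070, G004580 and H004090 (prefix KM6556v0_) were named after their values were seen. No genome of K. marxianus was used here, and no sequences are printed.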

Additional observations from a re-analysis of the deposited data

How the results depend on the processing

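No named call in any comparison was reversed under the alternatives run, but in every comparison some were lost when 1 library was left out. Members called in oxygen-limited against aerobic cultures numbered 147 and ranged from 108 to 179 when each of the 8 libraries was left out. In TE against aerobic cultures the range was 125 to 184 around 152, and in TE against oxygen-limited cultures 95 to 172 around 122. In T against TE cultures 91 members were called, with a range of 46 (without TE replicate 1) to 151 (without T replicate 1). Without TE replicate 2 it was 57 and without T replicate 2 it was 145. The T and TE libraries fitted alone gave 0 calls, and the added demand of an absolute log2 fold change above 1 gave 44.

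Over all genes, leaving out a library gave 1271 to 3678 calls in oxygen-limited against aerobic, 1891 to 3918 in TE against aerobic, 1658 to 3785 in TE against oxygen-limited and 633 to 3280 in T against TE cultures. The pair of groups fitted alone gave 3878 calls in oxygen-limited against aerobic and 0 (1613 at an unadjusted p under 0.05) in T against TE cultures. With an absolute log2 fold change above 1, the 4 counts were 1022, 1324, 1082 and 489. A group left with 1 library was taken to vary like the others.

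T and TE libraries share title stems, but no label states a pairing. Across 5143 genes, which are not independent replicates, replicate differences in T correlated with those in TE at 0.183 (Pearson) and 0.235 (Spearman). With the stem as a replicate block 45 members, 21 higher and 24 lower against 51 and 40 without it, and 631 genes were called. Of the 40 named calls in T against TE cultures, 12 were lost with the block and all 40 with the pair fitted alone. Ranking by the mean over all libraries gave shares of counts of 9.16% in oxygen-limited and 7.90% in TE cultures. Depth was no limit for the members at their highest group, but values under about 10 CPM rest on few counts.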

Other observations

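KM6556v0_A000360, of 429 bases and without a GO term, had 1834 and 1662 CPM in the aerobic libraries, 2231 and 2202 in the oxygen-limited, 2221 and 2456 in the TE and 2541 and 3182 in the T libraries. Per kilobase its group means were 4075, 5166, 5451 and 6670 CPM per kb in aerobic, oxygen-limited, TE and T cultures. The cell-wall gene KM6556v0_E002580 had 1265 and 1131 CPM in the aerobic libraries, 771 and 766 in the oxygen-limited, 581 and 549.9 in the TE and 1355 and 738 in the T libraries, and in oxygen-limited against aerobic cultures its log2 fold change of -0.64 (SE 0.26, edgeR adjusted p = 0.0806) was not called. KM6556v0_E002830, with a term for structural constituents of the ribosome, had 234 and 275 CPM in the aerobic libraries, 189 and 190.3 in the oxygen-limited, 448 and 484 in the TE and 1008 and 798 in the T libraries, with its T libraries the highest.

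Ranking by the mean over all 8 libraries in place of the largest group mean kept 179 of the 200 genes, and ranking per kilobase kept 141. Of the authors' deposited tables of K. marxianus comparisons, the one numbered 32 and the one numbered 43 held identical values in every cell, and both matched T against TE cultures here, with a largest absolute difference of 0.0065 in log2 fold change over the 200 genes. For oxygen-limited against aerobic cultures the authors' deposited table gives 151 of the 200 genes a false discovery rate under 0.05, and the authors' deposited tables for TE against aerobic and T against TE cultures give it to 154 and 102.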
